A study of Homo sapiens with 8 samples.

Results

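Amino acid transporters are the membrane proteins that carry amino acids into and out of the cell, and 10 of their genes were followed here: SLC7A11, SLC7A5, SLC3A2, SLC7A1, SLC7A3, SLC38A1, SLC38A2, SLC1A4, SLC1A5 and SLC6A9. They were chosen by symbol, with earlier results of these data known. Each of the 10 matched 1 Ensembl identifier among the 58787 genes of the deposited count table. The cells were IMR32, an established human neuroblastoma line, given by the labels as wild type, and every library came from this 1 line. After 48 h of adhesion, fresh medium with CR31B at its IC50 or with the vehicle, 0.1% DMSO, was added, and polyadenylated RNA was profiled at 6 h. Each group had 4 libraries, which the submitters call biological replicates. The series title ties the compound to eIF4A, the RNA helicase that unwinds messenger RNA for translation initiation.

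Amino acids do not cross membranes freely, so supply to the ribosome and to glutathione synthesis depends on these carriers. Some are exchangers, which swap 1 amino acid for another, and others pull amino acids in with sodium. Transcription of many of them is known to rise through ATF4, a transcription factor made preferentially when amino acids run short. Tumours driven by MYC family proteins, neuroblastoma among them, are known to take up much glutamine and other neutral amino acids.

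Total counts ran from 43687828 to 64715535 per library. Replicate 1 was sequenced paired-end in both groups and replicates 2 to 4 single-end, and replicate 1 stood apart from the rest. On the first principal component of all tested genes, with 51.8% of the variance, scores were 19.0 to 28.95 for CR31B and -29.4 to -25.8 for DMSO in the single-end libraries. The library labelled CR31B replicate 1 scored -26.4 and the library labelled DMSO replicate 1 scored 32.0, so in pair 1 the order of the groups was opposite. The library labelled CR31B replicate 1 correlated across genes at 0.995 with single-end DMSO and at 0.987 with single-end CR31B libraries on average, and the library labelled DMSO replicate 1 at 0.987 and 0.994. Whether the replicate 1 labels are exchanged was not tested, and every value of pair 1 and of the 8 libraries together rests on them. No label was changed, and pair 1 is given apart from pairs 2 to 4. Defining markers of adrenergic neuroblasts were present, with 10 of 10 at a mean of at least 1 CPM (counts relative to the TMM-scaled library size), against 6 of 10 mesenchymal, 1 of 5 Schwann cell and 1 of 8 endothelial, immune and epithelial markers. SOX10, PRRX1, CD3E and KRT18 had 0 counts in all 8 libraries. Of the mesenchymal markers, PRRX1 was thus absent, while VIM averaged 409 CPM and TWIST1 159 CPM.

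In replicates 2 to 4, messenger RNA of 9 of the 10 transporters was higher in the libraries labelled CR31B than in those labelled DMSO, and the remaining one, SLC7A3, was almost undetected. The cystine carrier SLC7A11 rose 4.91-fold and the glycine carrier SLC6A9 3.69-fold, and the other 7 rose between 1.21-fold and 1.69-fold. In pair 1 the same 9 genes were lower in the library labelled CR31B. The summed level of the 10 transporters was 2324, 2436 and 2720 CPM in CR31B replicates 2 to 4 and 1723, 1643 and 1771 CPM in the DMSO libraries of those numbers. In pair 1 it was 1784 CPM in the library labelled CR31B and 2528 CPM in the library labelled DMSO. These are bulk samples, in which fewer cells of a type and less RNA per cell cannot be told apart.

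The count of 9 has to be read against a very broad background. In replicates 2 to 4, 6901 of 16696 tested genes, or 41.3%, passed an adjusted p of 0.05 (quasi-likelihood test of edgeR, Benjamini-Hochberg), 23.8% higher and 17.6% lower with CR31B. All 9 tested transporters were among the 23.8%, but they were chosen with earlier results of these data known, so this is no independent evidence. Their median log2 fold change was 0.67, against -0.007 over all tested genes, whose 5th to 95th percentile ran from -0.59 to 0.75. Past a 2-fold rise were 1.99% of all genes, and of the transporters SLC7A11 and SLC6A9. With all 8 libraries under their labels, 0 of 9 transporters passed, and 0% of 16518 tested genes did (205 at an unadjusted p under 0.05, none of them a transporter). Each transporter had an adjusted p of 0.707 there, with log2 fold changes from 0.16 for SLC38A2 to 1.47 for SLC7A11. DESeq2 and limma voom also called 0 transporters in that comparison.

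**Figure D1:**
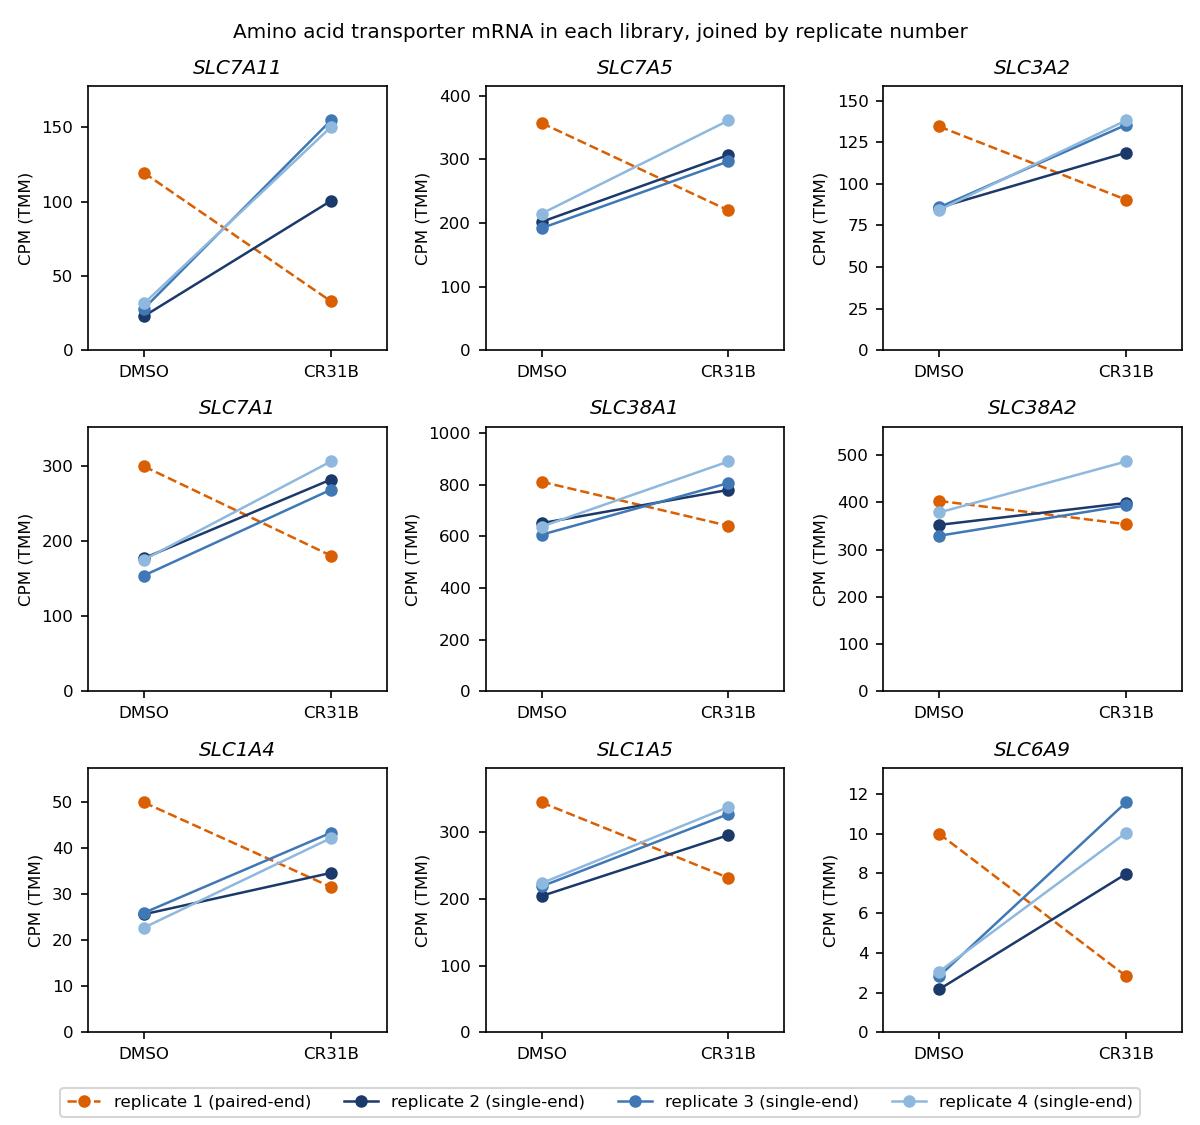
Level of 9 transporters in each library (CPM scaled by TMM, linear axis from 0), with DMSO on the left and CR31B on the right of each panel and lines joining libraries of the same replicate number. Solid blue lines, replicates 2 to 4, go up in every panel, and the dashed orange line, replicate 1, goes down in every panel, as for SLC7A11 with 119 CPM in the DMSO library and 33.1 CPM in the CR31B library.

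The first group comprises the heterodimeric carriers. SLC3A2, also called 4F2hc or CD98, is the heavy chain that brings light chains to the plasma membrane, and SLC7A11 and SLC7A5 are light chains that compete for it. SLC7A11 (xCT) exchanges extracellular cystine for glutamate and supplies cysteine for glutathione. SLC7A5 (LAT1) brings in leucine and other large neutral amino acids in exchange for intracellular ones such as glutamine.

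SLC7A11 (ENSG00000151012, GRCh38 chromosome 4, 138164097 to 138242349, minus strand) stood at 101, 155 and 150.1 CPM in CR31B replicates 2, 3 and 4 and at 23.0, 28.2 and 31.6 CPM in DMSO replicates 2, 3 and 4. The lowest of the CR31B values was more than every DMSO value, and the groups did not overlap. The means were 135 ± 30.01 CPM and 27.6 ± 4.30 CPM (SD, n = 3). On the log2 scale the rise was 2.29 ± 0.16 (SE, edgeR adjusted p 3.56e-06). It was the 14th largest rise among the 16696 genes tested. In pair 1, 33.1 CPM in the library labelled CR31B stood against 119 CPM in the one labelled DMSO. The log2 difference was -1.85 there, against 2.12, 2.45 and 2.25 in pairs 2, 3 and 4. Each replicate 1 library thus lay nearer to the single-end libraries of the other label. As labelled, the 8 libraries gave 1.47 ± 0.70 with an adjusted p of 0.707, and the groups overlapped.

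SLC3A2 (ENSG00000168003, chromosome 11, 62856102 to 62888875, plus strand) was at 119, 135 and 138 CPM in CR31B replicates 2 to 4. Its DMSO values of the same numbers were nearly alike, at 85.8, 85.9 and 84.3 CPM. The rise was 1.53-fold, or 0.62 ± 0.061 on the log2 scale (SE, edgeR adjusted p 2.94e-05). Pair 1 read 90.5 CPM in the library labelled CR31B and 134 CPM in the library labelled DMSO.

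SLC7A5 (ENSG00000103257, chromosome 16, 87830023 to 87869488, minus strand) was the more abundant light chain per exon length. It had 307, 297 and 361 CPM in CR31B replicates 2 to 4 and 202, 192 and 215 CPM in the DMSO libraries. The groups did not overlap, and the rise was 1.59-fold, or 0.67 ± 0.077 on the log2 scale (SE, edgeR adjusted p 7.59e-05). In pair 1, 219.8 CPM in the library labelled CR31B stood against 357 CPM in the library labelled DMSO. An antisense gene shares 5.71% of its exon bases.

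The ratio of light chain to heavy chain, taken per exon length, separated SLC7A11 from SLC7A5. SLC7A11 to SLC3A2 was 0.455, 0.613 and 0.584 in CR31B replicates 2 to 4 and 0.144, 0.176 and 0.201 in the DMSO libraries. The mean was 0.551 ± 0.084 against 0.174 ± 0.028 (SD, n = 3), a difference of 1.67 on the log2 scale, and pair 1 gave 0.196 with CR31B and 0.477 with DMSO. SLC7A5 to SLC3A2 was 2.69 ± 0.26 with CR31B and 2.60 ± 0.17 with DMSO (SD, n = 3), a log2 difference of 0.049 that lay within the spread. Across all 8 libraries SLC7A5 to SLC3A2 stayed between 2.39 and 2.90, pair 1 included. With 4 against 4 libraries as labelled, an exact two-sided permutation test gave p = 0.143 for the first ratio and p = 0.943 for the second, where 0.0286 is the smallest value possible. With 3 against 3 that permutation test cannot go below 0.1, so replicates 2 to 4 are given as values, without it.

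**Figure D2:**
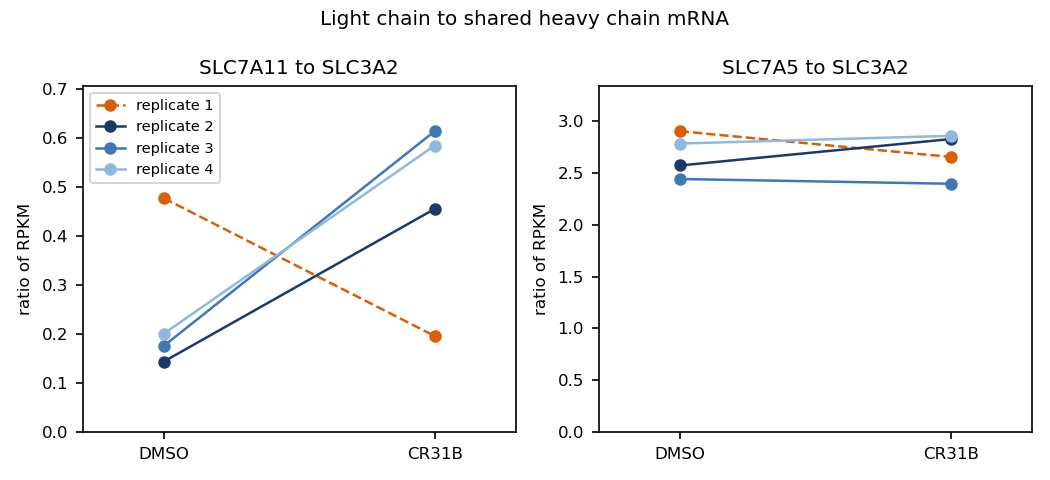
Ratio of light chain to heavy chain messenger RNA per exon length in each library (ratio of RPKM, linear axis from 0), SLC7A11 to SLC3A2 on the left and SLC7A5 to SLC3A2 on the right, with lines joining libraries of the same replicate number. The left panel runs from 0.144 to 0.613 and reverses in replicate 1, while all 8 points of the right panel lie between 2.39 and 2.90.

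The bases before the start sites of these genes, 9 of which moved together, were searched for motifs. The RefSeq promoter table (GRCh38.p14) held 14 start sites of 8 of the 10 transporters (all but SLC7A11 and SLC7A3), and the 250 bases upstream of each were read on both strands. The 3 motifs were TGATGNAA, the core of the C/EBP-ATF response element to which ATF4 dimers bind, TGACNNNGC, the core of the antioxidant response element read by NRF2, and CACGTG, the E-box read by MYC and related factors. Matches of different motifs may share bases, though none did in these genes. TGATGNAA was in 1 of the 14 windows, against 3.14% of all 35116 windows of this length. TGACNNNGC was in 3, against 10.9%, and CACGTG in 2, against 6.34%. Some windows overlap exons of GENCODE release 29. Of the SLC1A5 windows, 1 lies 100% in exons of AC008622.2 on the opposite strand. The SLC1A5 window with CACGTG and TGACNNNGC is 77.2% SLC1A5 exon, and that with TGATGNAA 36.4%. The SLC3A2 window with a match overlaps by 12.4%, those of SLC7A5 and SLC7A1 by 0%. Bases just past either SLC38A1 start site were not found in a GENCODE transcript of that gene. The sequence of SLC7A5 is shown for its E-box and that of SLC3A2 for its antioxidant element core, 37 to 29 bases before 1 of its 3 start sites in the table, which lies inside the gene's span. Letters run 5′ to 3′ along the gene's strand and capitals mark the match. SLC7A5 occupies chr16:87869508-87869757 on the minus strand with its match from 130 to 125 bases upstream, and the SLC3A2 site chr11:62881652-62881681 on the plus strand.
SLC7A5: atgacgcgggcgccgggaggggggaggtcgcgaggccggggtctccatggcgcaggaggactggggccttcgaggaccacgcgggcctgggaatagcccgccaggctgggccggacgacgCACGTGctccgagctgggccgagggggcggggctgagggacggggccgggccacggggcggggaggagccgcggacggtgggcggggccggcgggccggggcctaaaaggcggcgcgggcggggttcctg
SLC3A2: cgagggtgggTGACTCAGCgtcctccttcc
A match describes the letters only and is not a measured site of binding.

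The cationic amino acid carriers were represented by 1 abundant and 1 nearly silent gene. SLC7A1 (CAT1; ENSG00000139514, chromosome 13, 29509410 to 29595688, minus strand) brings in arginine, lysine and ornithine. It stood at 281, 268 and 305 CPM in CR31B replicates 2 to 4 and at 177, 154 and 175 CPM in the DMSO libraries, with no overlap. Its rise of 1.69-fold was the third largest of the transporters, 0.76 ± 0.069 on the log2 scale (SE, edgeR adjusted p 1.63e-05). Pair 1 again ran the other way, with 180.4 CPM in the library labelled CR31B and 299 CPM in the library labelled DMSO. SLC7A3 (CAT3; ENSG00000165349, X chromosome, 70925582 to 70931125, minus strand), a relative known from brain, had 0 to 2 counts per library. It did not pass the filter on low counts and was not tested. At these depths a count of 0 allows up to 3 counts, or 0.046 to 0.069 CPM. The upstream window of SLC7A1, chr13:29595689-29595938 on the minus strand, is shown for its match to TGACNNNGC from 85 to 77 bases before the start.
SLC7A1: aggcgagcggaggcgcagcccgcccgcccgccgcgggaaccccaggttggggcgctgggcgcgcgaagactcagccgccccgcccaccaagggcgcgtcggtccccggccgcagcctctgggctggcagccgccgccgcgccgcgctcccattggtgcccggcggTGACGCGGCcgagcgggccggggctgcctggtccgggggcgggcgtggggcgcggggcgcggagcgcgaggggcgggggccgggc

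Of the 9, the sodium-coupled neutral carriers SLC38A1 and SLC38A2 had the smallest differences. SLC38A1 (SNAT1; ENSG00000111371, chromosome 12, 46183063 to 46270017, minus strand) and SLC38A2 (SNAT2; ENSG00000134294, chromosome 12, 46358189 to 46372867, minus strand) concentrate glutamine and other small neutral amino acids and lie side by side in the genome. SLC38A1 was at 780.5, 807 and 890.5 CPM in CR31B replicates 2 to 4 and at 652, 607 and 638 CPM in the DMSO libraries. It rose by 0.39 ± 0.062 on the log2 scale (SE, edgeR adjusted p 0.000651), and with offsets for GC content and length it was 0.18 with an adjusted p of 0.0347. In pair 1, 641 CPM with CR31B stood against 812 CPM with DMSO.

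SLC38A2 was at 399, 393 and 486 CPM in CR31B replicates 2 to 4 and at 352, 329 and 378 CPM in the DMSO libraries. The CR31B values were higher, but the lowest of them and the highest DMSO value were close. The rise of 0.27 ± 0.085 on the log2 scale (SE, edgeR adjusted p 0.0265) was the least certain of the 9. It lost the call with GC and length offsets (0.11, adjusted p 0.320), with upper quartile scaling (0.17, 0.0803), with total count scaling (0.19, 0.0530), and without CR31B replicate 4 (0.17, 0.0919), DMSO replicate 2 (0.27, 0.0659) or DMSO replicate 3 (0.22, 0.0931). With the GC and length offsets and the replicate number as a block together, the adjusted p was 0.0424. With the block alone the rise was 0.27 ± 0.043 (SE, edgeR adjusted p 0.000469). DESeq2 gave 0.26 with an adjusted p of 0.00967. Of 16 alternatives 10 kept the call. In pair 1 the levels were 354 CPM with CR31B and 403 CPM with DMSO, as labelled.

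SLC1A5 (ASCT2; ENSG00000105281, chromosome 19, 46774883 to 46788594, minus strand) and SLC1A4 (ASCT1; ENSG00000115902, chromosome 2, 64988477 to 65023865, plus strand) exchange alanine, serine, cysteine and threonine, and SLC1A5 also glutamine. SLC1A5 had 295, 326 and 337 CPM in CR31B replicates 2 to 4 and 204, 218 and 223 CPM in the DMSO libraries. Its 3 pair differences were the most alike of the transporters, at 0.53, 0.58 and 0.59 on the log2 scale. The fit gave 0.57 ± 0.062 (SE, edgeR adjusted p 5.06e-05). Pair 1 gave -0.57, from 231 CPM in the library labelled CR31B and 344 CPM in the library labelled DMSO.

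SLC1A4, the lower of the pair per exon length, was at 34.6, 43.3 and 42.1 CPM in CR31B replicates 2 to 4 and 25.6, 25.9 and 22.7 CPM in the DMSO libraries. The groups did not overlap, and SLC1A4 rose by 0.69 ± 0.091 on the log2 scale (SE, edgeR adjusted p 0.000177). The differences of pairs 2 to 4 ran from 0.43 to 0.89 on the log2 scale, the widest span of the 9 genes. Pair 1 read 31.6 CPM in the library labelled CR31B and 49.9 CPM in the library labelled DMSO. Of the 8 genes with a RefSeq window, only SLC1A5 had a C/EBP-ATF response element core, at an alternative start site, from 97 to 90 bases upstream and within 30 bases at chr19:46784893-46784922 on the minus strand.
SLC1A5: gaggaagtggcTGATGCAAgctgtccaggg
This is the element named above for ATF4, and it is shown because SLC1A5 alone carried it. Of the 250 bases before that start site, 36.4% are annotated as SLC1A5 exon.

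SLC6A9 (GLYT1; ENSG00000196517, chromosome 1, 43991500 to 44031467, minus strand) takes up glycine with sodium and chloride and clears it from synapses in the nervous system. Per exon length it was the rarest detected transporter, with 134 to 670 counts per library. The levels were 7.97, 11.6 and 10.04 CPM in CR31B replicates 2 to 4 and 2.17, 2.83 and 3.06 CPM in the DMSO libraries, so each CR31B value was above every DMSO value. The rise of 1.88 ± 0.17 on the log2 scale (SE, edgeR adjusted p 1.33e-05) was the 21st largest rise of all tested genes. Pair 1 read 2.84 CPM with CR31B and 9.99 CPM with DMSO, as labelled, and so differed by -1.81. CCDC24, which shares 7.83% of its exon bases from the opposite strand, was at 0.603 to 1.03 CPM.

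The CPM ranges of the groups did not overlap for 9 of 10 transporters in replicates 2 to 4, against 52.1% of tested genes. As labelled, with all 8 libraries, the groups overlapped for all 10, and 0.66% of tested genes were free of overlap. For 9 of 10 transporters pairs 2 to 4 ran in 1 direction and pair 1 in the other, which was so for 65.1% of genes. The interaction of treatment with layout, which asks whether the difference of pair 1 departs from that of the other pairs, passed an adjusted p of 0.05 for 8 of 9 transporters and for 42.5% of all genes (edgeR). SLC38A2 was the exception, at -0.46 ± 0.17 (SE, adjusted p 0.0523). Only 1 library per group was paired-end, so only the single-end libraries inform the spread of this test, and layout and replicate number cannot be told apart.

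**Figure D3:**
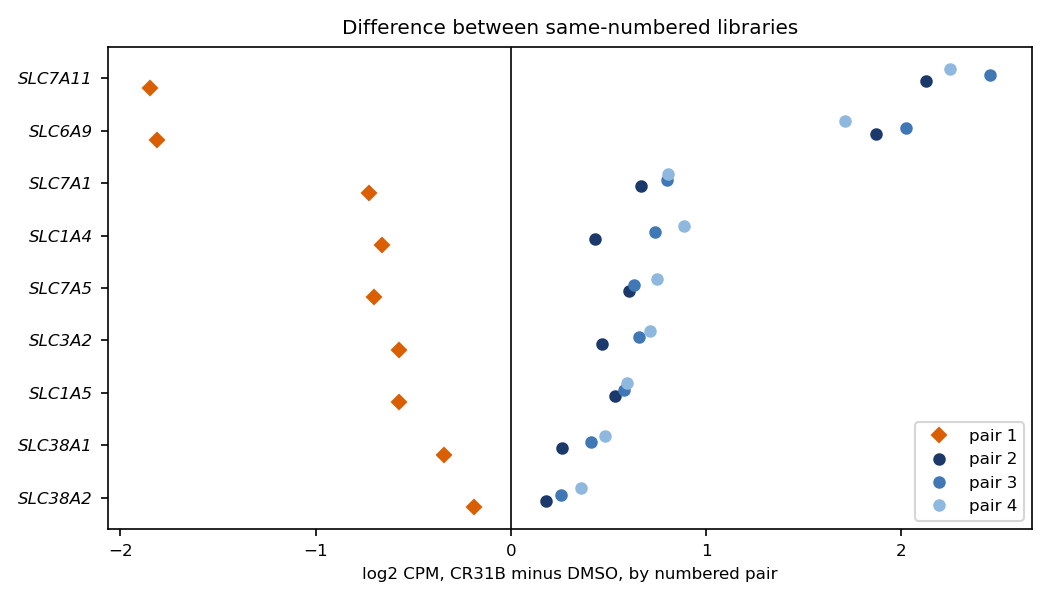
Difference in log2 CPM between the CR31B and the DMSO library of the same replicate number, for 9 transporters, with diamonds for pair 1 and circles for pairs 2 to 4. Every circle lies right of 0, from 0.18 for SLC38A2 in pair 2 to 2.45 for SLC7A11 in pair 3, and every diamond lies left of 0, from -0.19 for SLC38A2 to -1.85 for SLC7A11.

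Levels were put in order per exon length, as RPKM (CPM per kilobase of exon), in replicates 2 to 4. With DMSO the order was SLC1A5 at 64.6 ± 3.01, SLC38A1 at 63.1 ± 2.29, SLC38A2 at 53.5 ± 3.73, SLC7A5 at 42.7 ± 2.42, SLC7A1 at 21.9 ± 1.66, SLC3A2 at 16.5 ± 0.17, SLC1A4 at 3.57 ± 0.25, SLC7A11 at 2.86 ± 0.45 and SLC6A9 at 0.520 ± 0.090 RPKM (SD, n = 3). Only the ranges of SLC1A5 and SLC38A1 overlapped among neighbours in that order. With CR31B, SLC1A5 at 95.9 ± 6.54 and SLC38A1 at 82.5 ± 5.73 RPKM still led and overlapped. SLC7A5 at 67.8 ± 7.27 and SLC38A2 at 64.5 ± 7.91 RPKM overlapped as well. SLC7A11, at 14.0 ± 3.11 RPKM, stood above SLC1A4 at 5.77 ± 0.68 RPKM, so these 2 genes were in the opposite order from DMSO. The heavy chain SLC3A2 was below SLC7A5 per length in both groups.

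**Figure D4:**
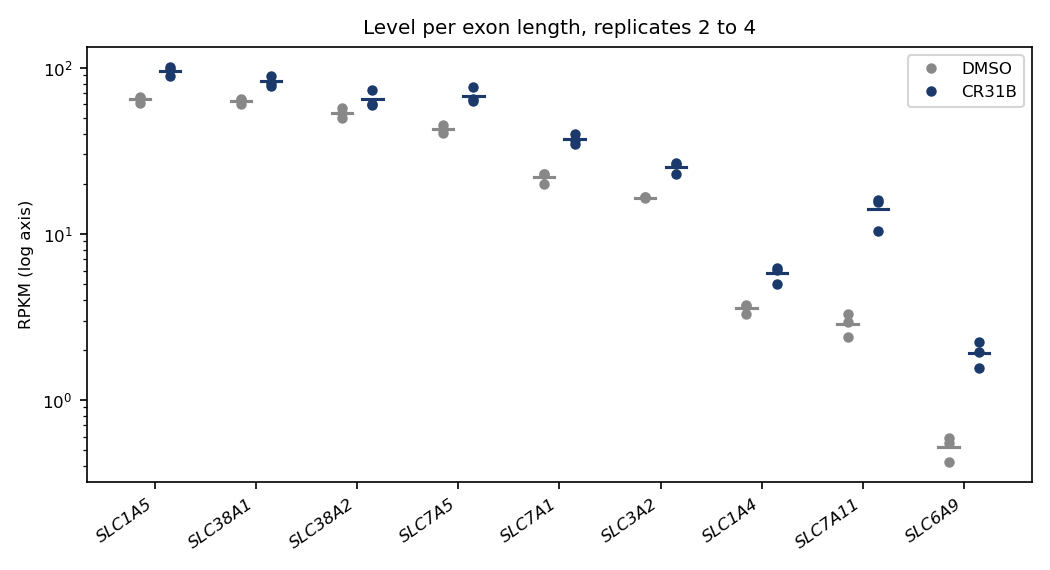
Level per exon length of 9 transporters in replicates 2 to 4 (RPKM, log axis), grey for DMSO and blue for CR31B, with a point per library and a bar at the mean of 3. The means run from 0.520 RPKM for SLC6A9 with DMSO to 95.9 RPKM for SLC1A5 with CR31B, and the mean of SLC7A11 moves from 2.86 to 14.0 RPKM.

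Of 31 further plasma membrane transporters 14 were tested in replicates 2 to 4, and 3 rose and 2 fell, with a median log2 fold change of 0.035. The share called was 35.7%, near the 41.3% of all tested genes. Those that rose were SLC43A1 (0.82) and SLC43A2 (0.52), carriers of large neutral amino acids that need no heavy chain, and SLC38A3 (0.75), a glutamine carrier at only 1.33 CPM. Those that fell were the glutamate carrier SLC1A1 (-0.39) and the taurine carrier SLC6A6 (-0.34). SLC7A2, another arginine carrier, was at 0.022 with an adjusted p of 0.833, and SLC7A6, a light chain that also pairs with SLC3A2, was at -0.018 with an adjusted p of 0.880 (edgeR).

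Of 14 lysosomal and vesicular carriers 12 were tested, and 3 rose and 3 fell, with a median of 0.059 (50% called, against 41.3% of all tested genes). SLC38A9, the arginine sensor of the lysosome, rose by 0.83 with an adjusted p of 4.81e-06, SLC7A14 by 0.46 and SLC38A7 by 0.23. SLC36A1 (-0.42), SLC36A4 (-0.28) and SLC15A4 (-0.28) fell. With GC and length offsets SLC7A14 was at 0.24, still past the threshold. SLC38A7 lost its call with upper quartile or total count scaling and without DMSO replicate 2 (adjusted p up to 0.152). SLC15A4 lost it without CR31B replicate 2 or 3 or DMSO replicate 2 or 4 (up to 0.0941). Of 12 mitochondrial carriers 10 were tested, and 2 rose and 1 fell, with a median of -0.046 (30% called). The glycine carrier SLC25A38 rose by 0.56 and the ornithine carrier SLC25A15 by 0.21, and the basic amino acid carrier SLC25A29 fell by 0.36, each on the log2 scale. SLC25A15 lost its call with upper quartile or total count scaling (adjusted p up to 0.116).

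Amino acid sensing genes report supply to mTORC1 and, through GCN2, to eIF2alpha. Of 23 genes 22 were tested, and 3 rose and 9 fell, with a median of -0.074. Of all tested genes 23.8% were higher and 17.6% lower. The leucine sensor SESN2 rose by 1.76, ATF4 by 0.39 and the Rag GTPase RRAGA by 0.21. NPRL3 (-0.46) of the GATOR1 complex, CASTOR2 (-0.42), LAMTOR5 (-0.34) of the Ragulator complex and RRAGC (-0.29) had the largest falls. The count of 9 fell to 5, 4, 5, 4 and 3 without CR31B replicate 3, CR31B replicate 4, DMSO replicate 2, DMSO replicate 3 and DMSO replicate 4. RRAGA lost its call with upper quartile or total count scaling (adjusted p up to 0.0853). CASTOR2 lost it with GC and length offsets and without CR31B replicate 3 or 4 or DMSO replicate 2 or 4 (up to 0.148), and RRAGC without CR31B replicate 3 or DMSO replicate 2 or 3 (up to 0.0634). EIF2AK4, the kinase GCN2, was at -0.11 with an adjusted p of 0.273 (edgeR).

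As a reference, 15 genes known to respond to ATF4 were read beside the transporters. All 14 tested rose, with a median log2 fold change of 1.26, and 0 fell, against 23.8% of all tested genes higher. Under the alternatives 12 to 14 rose. CHAC1 (2.99), which degrades glutathione, SESN2 (1.76), DDIT4 (1.71), an inhibitor of mTORC1, and PCK2 (1.498) are named by the rule. The list was written with earlier results of these data known and is no independent evidence of its direction. The summed level of the 10 adrenergic markers also differed between the groups, at 3766 to 4058 CPM in CR31B replicates 2 to 4 and 2844 to 2915 CPM in the DMSO libraries. In pair 1 it was 2931 CPM with CR31B and 3920 CPM with DMSO. HAND2 (mean 1328 against 678 CPM) and GATA3 (886 against 259 CPM) carried that sum. Gene by gene, 4 of the 10 rose, HAND2 and GATA3 among them, and 4 fell, DBH and STMN2 among them, with a median log2 fold change of -0.028. The share called was 80%, against 41.3% of all tested genes (23.8% higher and 17.6% lower). Mesenchymal markers summed to 650.3 to 747 CPM and 531 to 625 CPM, and of 8 tested 1, VIM, rose (12.5% called). Their part in the transporter differences was not tested.

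**Figure D5:**
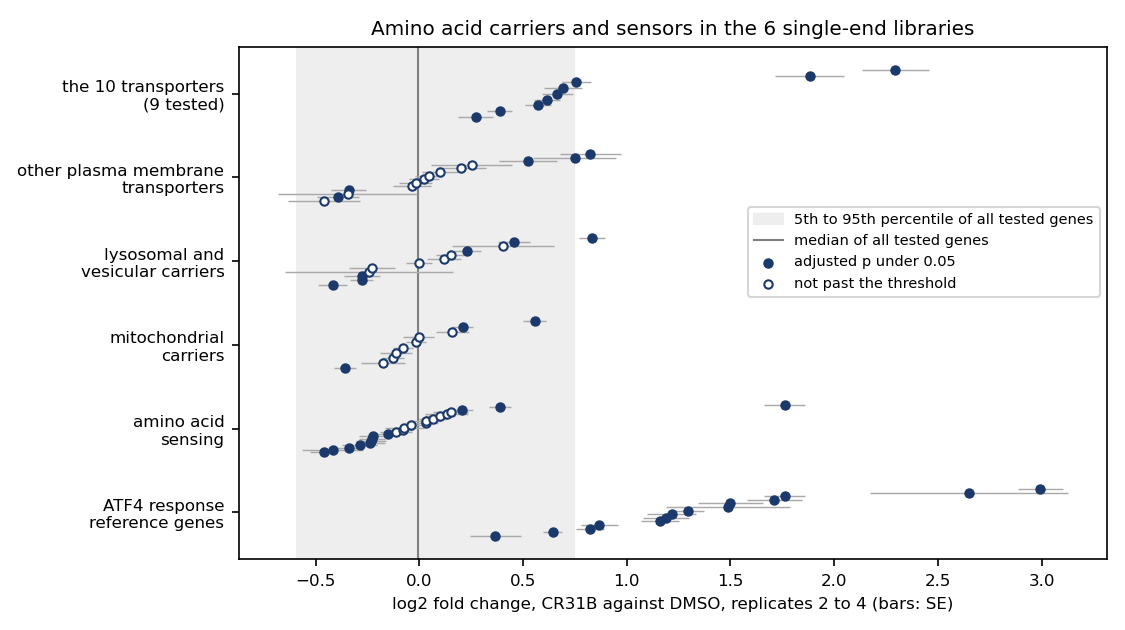
Log2 fold change of each tested gene in replicates 2 to 4 (CR31B against DMSO, bars show the SE), by gene list, with filled points for an adjusted p under 0.05, the line at the median of all tested genes and the grey band from their 5th to 95th percentile, -0.59 to 0.75. SLC7A11 (2.29) and SLC6A9 (1.88) lie far right of the band, the other 7 transporters lie right of the line, and the points of the other carrier lists fall on both sides of it.

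The transporters followed each other closely across libraries. Over the 8 libraries the correlation of log2 CPM between pairs of the 9 detected genes ran from 0.651 to 0.996 with a median of 0.950 (36 pairs). These values describe 8 points that share treatment, depth and the separation of replicate 1. Among 10687 other genes at a mean of at least 5 CPM, the closest to SLC7A11 were NEO1 (r = 0.998), APBA1 (0.997) and MRTFB (0.996). The closest to SLC7A5 were PHIP (0.997), MTHFD2 (0.996) and ATP2B1 (0.996), and to SLC3A2 ZNF516 (0.998), KIF14 (0.997) and CDK5RAP2 (0.997). Of these MTHFD2 is a mitochondrial enzyme of folate metabolism, whose level averaged 531 CPM.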

How the data were processed

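The authors deposited raw counts, not normalised, with 1 row per Ensembl gene and 1 column per library. The submitters' processing notes name STAR 2.7.2b, FastQC 0.11.7, edgeR 3.36.0, limma 3.50.3 and GRCh38. The counting tool, its annotation and strand setting are not given in the sources used here. Per the labels the molecule was polyadenylated RNA, yet the kit they name is for small RNA. Of 58787 identifiers 58515 were in GENCODE release 29, which gave coordinates and exon lengths.

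Counts were filtered (filterByExpr), scaled by TMM and tested with edgeR 4.0.16 in R 4.3.3 (quasi-likelihood, two-sided, Benjamini-Hochberg over all tested genes, threshold 0.05). The 8 libraries as labelled were fitted with layout as a covariate. The 6 single-end libraries were fitted alone, with treatment only and no block for the replicate number. The interaction of treatment with layout was fitted over all 8. For pair differences, log2 CPM used a prior count of 1. RPKM divides CPM by the union of exon bases. Whole-number totals differed between libraries, and the smallest mean chi-square per gene over 28 pairs of libraries was 7.16, so each library counted as its own replicate. The labels describe no molecular identifiers, and depth covers counting error only.

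In the single-end libraries, deviations from the group means of same-numbered libraries correlated at 0.21 (replicate 2), 0.38 (replicate 3) and 0.16 (replicate 4). The numbers were taken to pair the libraries, yet the main fit of replicates 2 to 4 left that pairing out. A fit with the replicate block is given as an alternative. The script was tested on simulated counts. Members and lists were chosen with earlier results of these data known. All 10 transporters are named. Of each other list, genes past the threshold in replicates 2 to 4 with a mean of at least 1 CPM are named, up to 4 per direction by size. For SLC7A11, SLC7A5 and SLC3A2 the 3 genes of highest r are named. EIF2AK4, SLC7A2, SLC7A6, and the overlapping genes and single markers named, were added after their values were seen. Alternatives were DESeq2 1.42.0, voom in limma 3.58.1, scaling by RLE, upper quartile or total counts, other filters, a replicate block, GC and length offsets, other prior counts, windows of 150 bases, and leaving out each library.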

Additional observations from a re-analysis of the deposited data

Results flagged for a closer look

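Of the transporters, 8 differed between pair 1 and pairs 2 to 4 by the test of that difference itself, the interaction of treatment with layout (edgeR quasi-likelihood, Benjamini-Hochberg). The interaction was -4.14 for SLC7A11 (adjusted p 7.31e-06), -3.70 for SLC6A9 (1.69e-05), -1.49 for SLC7A1 (1.95e-05), -1.36 for SLC7A5 (6.67e-05), -1.35 for SLC1A4 (0.000199), -1.19 for SLC3A2 (3.88e-05), -1.14 for SLC1A5 (5.24e-05) and -0.73 for SLC38A1 (0.000958), all on the log2 scale. Each is negative because the library labelled CR31B was lower than its DMSO partner in pair 1 and higher in pairs 2, 3 and 4. The same test passed for 42.5% of all genes, so the transporters share this with much of the transcriptome.

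In 2 groups of 4 libraries 1 library lay far from the rest. For SLC3A2 in the DMSO group the gap of replicate 1 to the nearest other library took 0.961 of the whole range, with 134 CPM against 84.3 to 85.9 CPM. For SLC1A4 in the DMSO group it took 0.832, with 49.9 CPM against 22.7 to 25.9 CPM. Both are past Dixon's 95% critical value for 4 samples, and chance passes it in about 1 of 20 groups, of which 18 were compared. Replicate 1 was the farthest library in 16 of the 18, all but both groups of SLC38A2.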

How the results depend on the processing

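In replicates 2 to 4 all 9 tested transporters kept their direction under 16 alternatives, and 8 kept their call under each. SLC38A2 kept it under 10, with values from 0.11 to 0.33. With the replicate block 9 transporters and 8540 genes passed, and the block changed no call of a transporter. The main fit had no such block, and its SE was larger for each of the 9. For SLC7A11 the SE was 0.061 with the block and 0.16 without, and for SLC38A2 0.043 and 0.085. Upper quartile scaling moved the median of all genes to -0.10 and gave 3010 higher and 4509 lower calls, against 3968 and 2933 with TMM, and total counts gave 3181 and 4194. Offsets for GC and length gave 3350 and 3308. In the interaction, upper quartile scaling gave 4811 higher calls against 3046. SLC38A2 passed in the interaction with no filter (-0.46, adjusted p 0.000534) and without CR31B replicate 2 (-0.51, 0.0374), CR31B replicate 3 (-0.51, 0.0215) or DMSO replicate 4 (-0.51, 0.0417). Of the 24 other named genes 18 kept their call under every alternative, and SLC38A7, SLC15A4, SLC25A15, CASTOR2, RRAGA and RRAGC lost it under at least 1. As labelled, leaving out 1 library gave 0 to 9 transporters, 0 to 6920 genes, 0 to 3974 higher and 0 to 2954 lower. The calls came only without replicate 1 of either group (6920 genes without the CR31B library, 6906 without the DMSO library). In those fits the layout term takes up the 1 paired-end library left, so treatment is read from the single-end libraries alone. Those calls in effect repeat the single-end fit and are no separate result. The single-end libraries alone gave 9 transporters, 6901 genes, 3968 higher and 2933 lower. The log2 ratio of SLC7A5 to SLC3A2 as labelled, 0.0045, ran from -0.038 to 0.058 when 1 library was left out. The causes were not tested. By the filter on low counts, SLC7A3 and 17 of 31 other plasma membrane carriers were not tested.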

Other observations

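Of 281 genes with an SLC symbol outside the amino acid lists, 169 were tested in replicates 2 to 4 (edgeR quasi-likelihood). Of these 28 rose and 35 fell, or 37.3% in all against 41.3% of all tested genes, and their median log2 fold change was -0.020. A higher level with CR31B was thus seen in 28 of 169 of these solute carriers and in 9 of 9 tested amino acid transporters chosen here, and this difference was not tested, since the 10 were chosen with earlier results known. The antisense transcript of SLC7A11, SLC7A11-AS1, which shares 8.97% of its exon bases, had at most 1 count in a library. SLC38A4, the third gene of the family on chromosome 12, had at most 2 counts.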
